A study of Mus musculus with 2 samples.

Results

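Isolated strong TCF1 intervals are places where the interval list of a TCF1 chromatin immunoprecipitation library shows a high score with nothing else listed close by. They were chosen from the list by 5 conditions: an autosomal position, a score of 300 or more, a width below 1000 bp, a height below 90, and no other listed interval within 20000 bp of either edge. Height means the score that an interval carries per 50 bp of its width. Of the 104683 listed intervals, 101290 were autosomal, and 15910 of those had no other interval within 20000 bp. A score of 300 or more was reached by 2020 of the isolated intervals. The width condition removed 131 of them and the height condition removed 51, which left 1838. These were 11.6% of the isolated autosomal intervals. The same score, width and height conditions were met by 19.4% of the clustered autosomal intervals, by 18.2% of all autosomal intervals and by 5.59% of the isolated intervals on X. Clustered here means that another interval was listed within 20000 bp.

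TCF1, the product of Tcf7, is an HMG-box DNA-binding protein that acts downstream of Wnt signalling and in T cell specification. In thymocytes it is known to occupy both promoters and sites far from genes, many of which work as enhancers. An enhancer can stand alone or lie in a group of neighbouring elements, so the spacing of binding sites is one way to sort them.

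The study profiled TCF1 in thymocytes of the γδ T cell lineage. Chromatin came from 1000000 sorted cells that were γδ+ and CD24+ with low or no CFP, taken from C57BL/6 mice with the genotype TCRbeta KO, Sox13tg+, Sox13 ECFP KI/+. The same genotype and sort apply to an input library, which was not analysed here, so the values have no background measured alongside them. The sources used here give neither the mouse age, the promoter of the Sox13 transgene nor the number of mice. The data are 1 library without replicates. No test between conditions or between sets of intervals was therefore made, and the differences below are descriptions whose counting intervals (95%) treat listed intervals as independent. The read depth is unknown. No marker gene was measured, so the sorted cell type could not be checked. The files use the mm9 build, and the gene and promoter tables at hand are for GRCm38.p6, so no gene, start site or DNA sequence was matched to an interval. Whether these intervals are distal to genes was not tested, and they are called isolated, not distal.

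At the median, the isolated strong intervals were wider and higher than most autosomal intervals, whose upper quartiles were 300 bp and 46.4. Their scores ran from 300.25 to 1459.75, and the middle 50% of them from 364 to 627 around a median of 463. Width had a median of 450 bp and quartiles of 350 and 600 bp. Height had a median of 53.3 and quartiles of 44.7 and 61.5. In the whole autosomal list, 90.2% of scores lay below the median score of the set and 85.5% of heights lay below its median height. The 13888 isolated intervals with a lower score, under the same width and height limits, had a median width of 200 bp and a median height of 21.9. Score, width and height all chose the set, so these contrasts follow from the rule. The sum of the widths was 917 kb, or 3.44% of the autosomal length covered by intervals, and the set held 4.29% of the summed autosomal score.

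**Figure D1:**
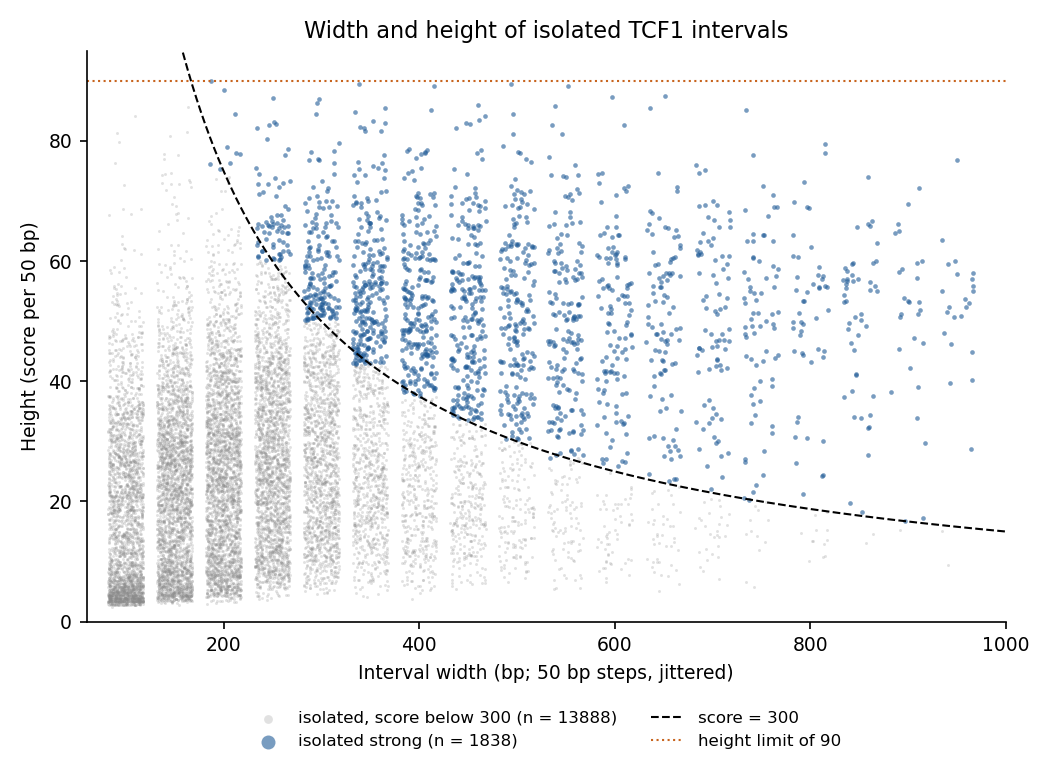
Width (bp, horizontal, in 50 bp steps with jitter) against height (score per 50 bp, vertical) of 1838 isolated strong intervals (blue) and 13888 isolated intervals of lower score (grey); each point is 1 interval. The dashed curve marks a score of 300 and the dotted line a height of 90, so the blue points fill the area between the curve, that line and a width of 950 bp.

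Widths came in 50 bp steps from 200 to 950 bp, and 58.4% of the set measured 300 to 500 bp. The most frequent width was 350 bp, with 243 intervals, followed by 400 bp with 239 and 450 bp with 229. The width with the fewest was 200 bp, the smallest that the score and height limits allow on the 50 bp grid, with 9 intervals. At 950 bp there were 23. Median height was 65.8 at 250 bp and 57.2 at 300 bp, and it lay between 48.6 and 54.3 at every width from 350 to 950 bp. The score limit removes low intervals at every width, most of all at narrow ones, and the height limit removes high ones, so these medians are partly set by the rule.

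The limits of the rule cut through a continuous range of values. The lowest score inside was 300.25, at chr12:119584951-119585500, an interval of 550 bp with a height of 27.3. The next, at chr15:41428601-41428950, had a score of 300.5. After it came 3 with a score of 300.75, at chr1:83404501-83404800, at chr10:116409801-116410150 and at chr16:74411751-74412100. Just outside were 3 isolated intervals listed at 299.999939, a value that differs from 300 only by rounding. They lay at chr4:64958201-64958550, at chr5:27068551-27068800 and at chr5:34395201-34395500. A further pair at 299.499939 lay at chr16:9051551-9051900 and chr16:93074651-93075000. The 23 intervals at the upper width of 950 bp stood beside 28 excluded ones of 1000 bp. At the height limit, the highest inside were 89.4 and 89.5 and 1 that differs from 90 only by rounding, and the lowest outside were 90.4 and 90.8. At the spacing limit, 4 members had a gap of 20.05 kb, and 6 intervals of the same score, width and height range were left out at a gap of 20 kb.

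The highest score belonged to an interval at chr1:5906501-5907450, with 1459.75 over 950 bp and a height of 76.8. It is also among the widest of the set. The second, at chr19:37248551-37249450, had a score of 1298.5 over 900 bp. The third, at chr3:82758251-82759000, had 1276.25 over 750 bp and the greatest height of the 10 highest, 85.1. Then came chr16:58180601-58181400 with 1270.5, chr2:49921701-49922550 with 1257.25 and chr7:6083751-6084650 with 1250.0. The remaining 4 were at chr18:7113501-7114300 with 1247.5, chr3:26500401-26501350 with 1207.75, chr6:101327051-101327950 with 1190.5 and chr11:3502051-3502850 with 1171.75. These 10 lay on 9 different autosomes, with widths of 750 to 950 bp and heights of 63.6 to 85.1. Their surroundings differed widely. The interval on chromosome 11 had 25 other intervals within 100 kb of its midpoint and a dense region 0.0604 Mb away, while that on chromosome 1 had 3 within 100 kb and its nearest dense region 30.6 Mb away.

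The same score limit admitted intervals of different shape. At one end were 134 intervals (7.29%) whose height was below the autosomal median of 34.4. They were wide and low, with a median width of 600 bp, a median height of 30.8 and a median score of 351. The lowest of all, at chr7:17773651-17774550, spread a score of 301.25 over 900 bp, a height of 16.7. At the other end were 170 intervals (9.25%) with a height of 70 or more, a median width of 400 bp and a median score of 625. The highest of them, and 1 of the 9 narrowest, at chr1:40579851-40580050, held a score of 360.0 in 200 bp. Both kinds were found on all 19 autosomes. The wide, low kind had a median of 4.22 Mb to the nearest dense region and the high kind 2.36 Mb. No counting interval was computed for these medians, and whether the kinds differ in distance was not tested.

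Strong intervals made up a smaller share of the list where intervals stood farther apart. Among autosomal intervals with a neighbour at most 500 bp away, 27.3% met the score, width and height conditions (95% Clopper-Pearson interval 26.7 to 27.9%). The share was 18.04% at gaps of 1 to 2 kb (17.3 to 18.8%) and 14.1% at 10 to 20 kb (13.5 to 14.7%). Beyond the isolation limit it was 12.5% at 20 to 50 kb (11.9 to 13.1%), 9.46% at 50 to 100 kb (8.51 to 10.5%) and 7.76% at over 100 kb (6.07 to 9.76%). The rule does not tie the score to the gap, and the share was lower in each of the 9 gap classes than in the class before it. The median height over all intervals in the class went the same way, from 39.4 at up to 500 bp to 19.9 at over 100 kb. Among the strong intervals themselves it ran from 52.3 to 55.4 across the 9 classes, a range that the score and height limits narrow by construction. Isolated intervals were 15.7% of the autosomal list and 9.997% of its strong intervals.

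**Figure D2:**
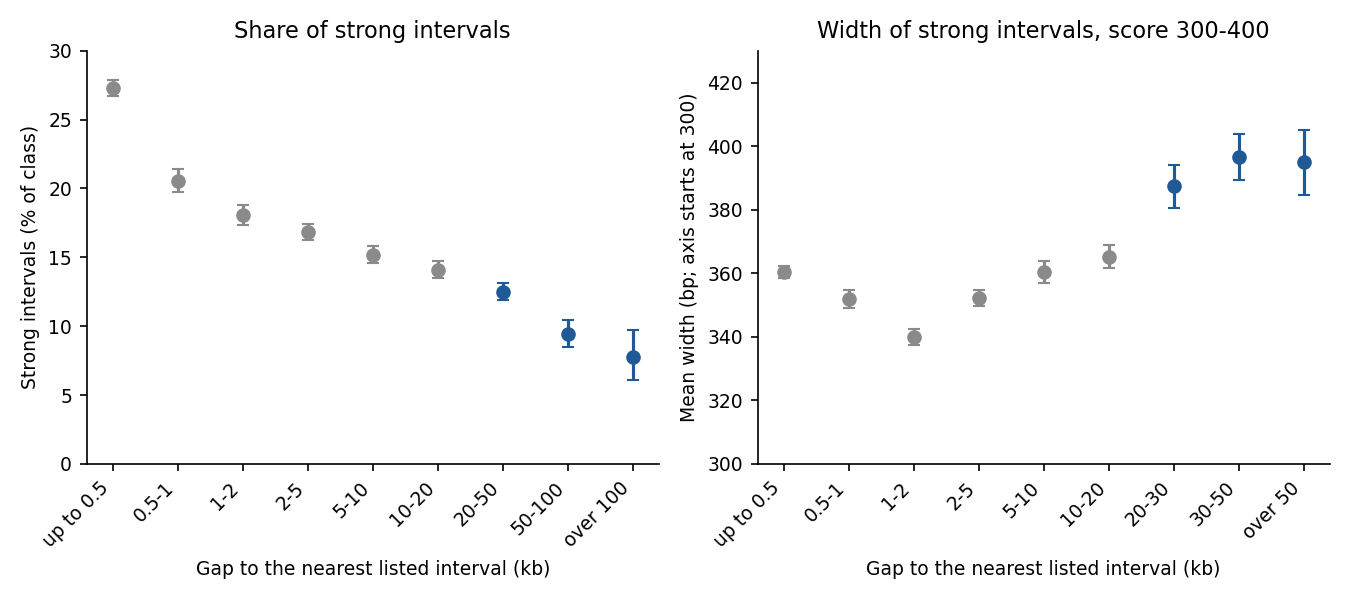
Left: strong intervals as a percentage of all autosomal intervals, by gap to the nearest listed interval (kb), with 95% Clopper-Pearson intervals; blue classes are isolated. The share is 27.3% in the closest class and 7.76% in the farthest. Right: mean width (bp, axis from 300) of strong intervals with a score of 300 to 400 in similar gap classes, with the standard error over intervals; the 3 isolated classes lie at 387 to 396 bp and the clustered ones at 340 to 365 bp.

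At equal score, isolated strong intervals were wider and lower than clustered ones near the score limit. The difference in mean width was smaller in each class from a score of 400 up. The width limit leaves out wide, low intervals at high scores in both sets, so the smaller differences there are partly set by the rule. Whether the difference fades without that limit was not tested. For scores of 300 to 350, the mean width was 378 ± 118 bp (SD, 384 intervals) when isolated and 341 ± 82.2 bp (SD, 3646 intervals) when clustered, a difference of 36.4 bp. For scores of 350 to 400 it was 412 ± 110 bp (290 intervals) against 375 ± 84.4 bp (2677 intervals), a difference of 37.0 bp. In both classes the isolated mean was the larger on 18 of 19 autosomes. The difference was 22.5 bp at scores of 400 to 500, on 14 of 19 autosomes, and 6.31 bp at 500 to 600, on 11 of 19. At 600 to 800 it was 0.701 bp and at 800 or more 6.38 bp, with the isolated mean larger on 10 and 8 autosomes. Each difference is smaller than the SD between intervals, and all are below the 50 bp step of the list, so they describe averages and not single intervals. Since the score is the product of width and height, the heights mirror this. At scores of 300 to 350 the median height was 46.2 (95% interval of the median 44.6 to 48.0) when isolated and 50.2 (49.8 to 50.5) when clustered. At 600 to 800 it was 58.9 (57.1 to 60.5) and 58.6 (57.8 to 59.2). At 800 or more it was 60.8 (59.2 to 63.4) and 63.1 (62.45 to 63.7), with counting intervals that overlap.

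The same difference can be read as a share of wide, low intervals, since at a fixed score a low height is a large width. At scores of 300 to 350, 16.9% of isolated strong intervals and 6.45% of clustered ones had a height below the autosomal median. At 350 to 400 the shares were 12.1% and 4.26%. With the scores of 300 to 400 split by gap, the mean width was 360 ± 83.3 bp (SD, 2060 intervals) at gaps up to 500 bp and lowest, 340 ± 74.0 bp (859), at 1 to 2 kb. It was 365 ± 92.3 bp (665) at 10 to 20 kb, 387 ± 112 bp (275) at 20 to 30 kb, 396 ± 112 bp (243) at 30 to 50 kb and 395 ± 127 bp (156) beyond. Widths thus differed along the whole range of gaps and not at the 20 kb limit alone.

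Every autosome held isolated strong intervals. Counts ran from 54 on chromosome 19 and 56 on chromosome 17 to 143 on chromosome 2 and 161 on chromosome 1. Per Mb between the first and last listed interval, the mean over autosomes was 0.763 ± 0.0934 (SD over 19 autosomes). Chromosome 19 had the highest density, 0.927 per Mb (95% Poisson interval 0.696 to 1.21), ahead of 0.904 on chromosome 13 (0.740 to 1.09) and 0.868 on chromosome 9 (0.710 to 1.05). The lowest was 0.583 on chromosome 8 (0.458 to 0.730), after 0.607 on chromosome 17 (0.459 to 0.789) and 0.626 on chromosome 12 (0.492 to 0.786). Only the counting interval of chromosome 8 left out the mean over autosomes, so most neighbours in this order do not differ beyond counting error. The ratio of the highest to the lowest density was 1.59. For weaker isolated intervals, which are more numerous and so have less counting error, it was 1.38 (mean 5.73 ± 0.488 per Mb, SD over 19 autosomes), and for all listed intervals 2.10.

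Autosomes with more intervals in all had fewer weaker isolated ones per Mb. Across the 19 autosomes, the density of weaker isolated intervals and the density of all intervals had Pearson's r = -0.89 and Spearman's rho = -0.89. For isolated strong intervals the values were r = -0.23 and rho = -0.27. These intervals numbered 54 to 161 per autosome and the weaker ones 311 to 1214, so counting error weighs more on the strong values. Whether the strong and weaker correlations differ beyond that was not tested. These are descriptions over autosomes of 1 library, and a fuller autosome leaves fewer places free of neighbours by construction. Chromosome 11, the fullest autosome with 63.5 listed intervals per Mb, held 0.741 isolated strong intervals per Mb, close to the mean. Chromosome 1, the emptiest with 30.2, held 0.829. The part of isolated intervals that was strong ran from 9.13% on chromosome 8 (7.25 to 11.3%) to 14.7% on chromosome 19 (11.2 to 18.7%). On all 19 autosomes it was below the strong part of clustered intervals, which ran from 16.6 to 21.5%.

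**Figure D3:**
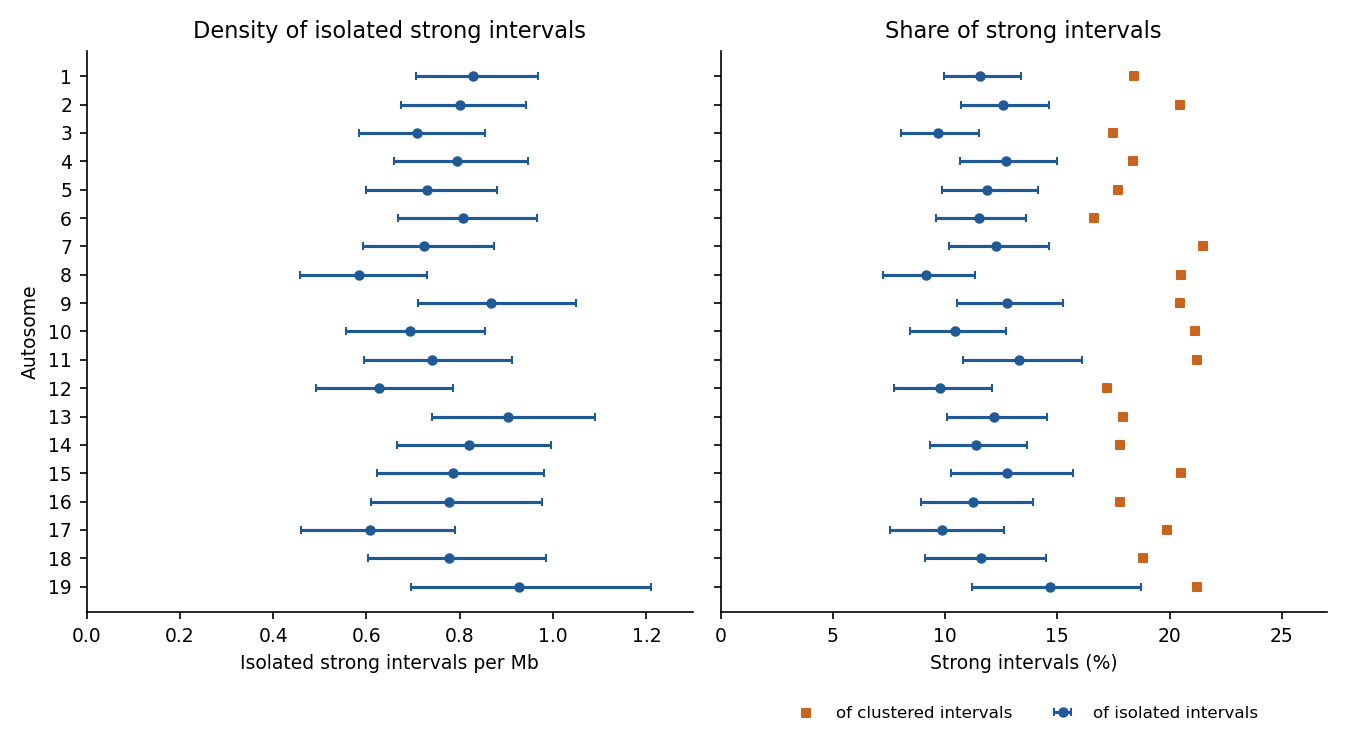
Left: isolated strong intervals per Mb on each of the 19 autosomes with 95% Poisson intervals, from 0.583 on chromosome 8 to 0.927 on chromosome 19. Right: strong intervals as a percentage of isolated intervals (blue, with 95% Clopper-Pearson intervals) and of clustered intervals (orange squares), the latter higher on all 19.

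The members had similar median widths, heights and scores from autosome to autosome, which the limits of the rule partly impose. Median width per autosome was 400 to 500 bp, median height 50.5 on chromosome 15 to 57.1 on chromosome 16, and median score 395 on chromosome 13 to 518 on chromosome 11. The strongest member of each autosome had a score between 959.75 and 1459.75. For chromosomes 1, 2, 3, 6, 7, 11, 16, 18 and 19 it is named above. The rest begin with chr4:102886951-102887850, with a score of 1047.0 over 900 bp. Next came those at chr5:96802951-96803900 (1083.75), at chr8:37520701-37521500 (1117.75) and at chr9:102256151-102257050 (1170.0). Those of chromosomes 10, 12 and 17 had nearly equal scores of 1086.75, 1101.25 and 1101.5, at chr10:115550551-115551300, chr12:32243751-32244700 and chr17:55584551-55585350. The strongest members of 3 autosomes stayed below 1000. They were at chr13:94541451-94542150 (967.25), chr14:60795651-60796500 (992.75) and chr15:34767051-34767900 (959.75). In all, 54 members on 16 autosomes reached 1000, with a median width of 850 bp and a median height of 66.0.

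Members were spread over much of the autosomal map. On a fixed grid of 2425 windows of 1 Mb, 1249 (51.5%) held at least 1 member, 421 held 2 or more, and 1176 held none. The window with the most, at chr5:20000001-21000000, held 6 members among 30 listed intervals. There were 9 windows with 5 members. They include chr12:32000001-33000000 (29 listed intervals) and chr13:35000001-36000000 (25). Neither the fullest nor the emptiest parts of the map held the most members per window. Windows with 30 to 39 listed intervals held 1.06 members on average, those with 10 to 19 held 0.565, those with 5 to 9 held 0.25, and those with 100 or more held 0.397.

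Most isolated strong intervals were not far past the isolation limit. The median gap to the nearest listed interval was 32.5 kb (95% interval of the median 31.6 to 33.4), with an upper quartile of 47.0 kb. A gap of 20 to 25 kb was found for 466 of them (25.4%), a gap above 50 kb for 403 (21.9%) and a gap above 100 kb for 67 (3.65%). Weaker isolated intervals stood farther from their neighbours, with a median of 35.6 kb (35.1 to 36.1), and 28.6% of them had a gap above 50 kb. The longer of the 2 gaps beside a member was 1.66 times the shorter at the median, and 1.79 times for weaker isolated intervals. The nearer neighbour lay to the left for 900 members and to the right for 935.

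The member farthest from any other listed interval lay at chr18:39932901-39933400, with 282.8 kb free on the left, 390.7 kb on the right and a score of 486.25. The next was at chr19:48589951-48590350, with a nearest gap of 247.8 kb. Its score of 617.75 and height of 77.2 were the highest of the 10 most remote members. The interval at chr11:110927201-110927500 followed with a gap of 221.85 kb (score 338.0), and chr3:46251451-46252050 with 209.4 kb (456.25). The other 6 had nearest gaps of 160.45 to 194.1 kb. Of these, chr14:113461301-113461600 (score 314.0), chr2:133963301-133963600 (304.5) and chr3:125120851-125121100 (308.0) lay close to the score limit. Chromosome 8 held a pair of them, at chr8:16679751-16680050 (413.5) and chr8:55614651-55615150 (556.75), and chromosome 4 the last, at chr4:111087551-111088150 (545.0). All 10 had scores of 617.75 or less, and none of the 10 strongest members was among them.

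Like most listed intervals, the nearest listed neighbour of a member was usually weak. Its score had a median of 109 (102 to 116), beside 104 (102 to 106) for the neighbour of a weaker isolated interval and 170 (168 to 174) for that of a clustered strong one. The member had the higher score in 92.4% of cases and the clustered strong interval in 85.9%, which the score limit largely fixes. The neighbour was itself strong for 245 of 1838 members (13.3%, 95% Clopper-Pearson interval 11.8 to 14.97%). For weaker isolated intervals it was strong in 11.7% (11.2 to 12.3%), and for clustered strong intervals in 25.1% (24.5 to 25.8%). Of all autosomal intervals, 18.2% were strong, and the median score of the whole autosomal list was 136. The height of the neighbour was slightly greater beside a member, with a median of 28.5 (27.6 to 29.4), than beside a weaker isolated interval, with 24.6 (24.3 to 25.1). The neighbour was itself isolated for 49.4% of members (47.0 to 51.7%) and for 57.8% of weaker isolated intervals (56.9 to 58.6%). The rest of the neighbours had a further interval within 20000 bp of themselves.

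Beyond their empty flanks, isolated strong intervals lay in more populated surroundings than weaker isolated ones. Within 100 kb of the midpoint, members had a mean of 6.00 other listed intervals and a median of 5, and weaker isolated intervals a mean of 4.67 and a median of 4. The mean was higher for members on 18 of 19 autosomes, and chromosome 19 was the exception with 4.98 against 5.70. Within 500 kb the medians were 30 for members (29 to 31) and 23 for weaker isolated intervals (23 to 24). Clustered strong intervals had medians of 19 within 100 kb and 85 within 500 kb. Members with 10 or more others within 100 kb numbered 323 (17.6%), against 10.4% of weaker isolated intervals, and 68 (3.70%) had none.

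**Figure D4:**
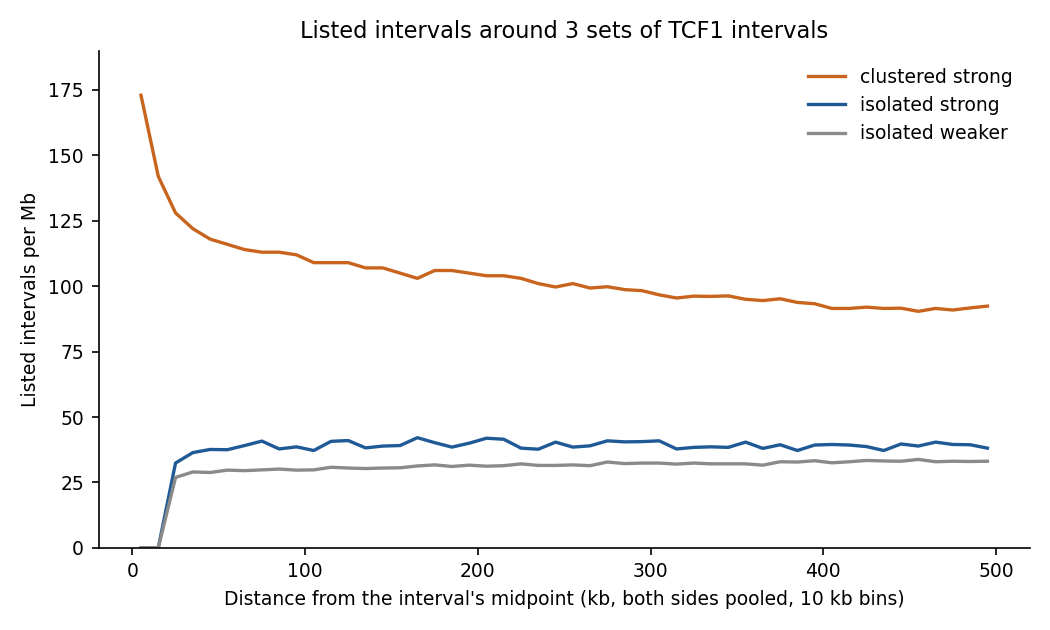
Listed intervals per Mb (vertical) by distance from the midpoint (kb, horizontal, both sides pooled in 10 kb bins) of clustered strong (orange), isolated strong (blue) and isolated weaker (grey) intervals. Both isolated sets are at 0 below 20 kb by the rule, and at 50 to 60 kb the values are 116, 37.5 and 29.7 per Mb.

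The contrast in surroundings began directly outside the isolation limit. At 20 to 30 kb from the midpoint there were 32.4 listed intervals per Mb around members and 26.9 around weaker isolated intervals. At 100 to 110 kb the values were 37.2 and 29.8, and at 490 to 500 kb they were 38.1 and 33.1. Because members had somewhat shorter gaps, the sets were also compared at like gaps. Among intervals with a nearest gap of 20 to 25 kb, the mean number within 100 kb was 8.54 for members and 7.21 for weaker ones. At gaps of 30 to 40 kb it was 6.24 and 5.05, and at 60 to 100 kb 2.33 and 2.10. Members had the higher mean in each of the 5 gap classes up to 100 kb.

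Among isolated intervals, the number of others within 100 kb was higher with a higher score up to a score of 700. The mean was 3.62 for scores below 25, 4.49 for 25 to 50, 4.78 for 50 to 100, 4.98 for 100 to 200 and 5.05 for 200 to 300. Inside the strong set it was 5.64 for 300 to 400, 6.05 for 400 to 500, 6.38 for 500 to 700 and 6.17 for 700 or more. At the score limit of 300 the mean went from 5.05 to 5.64 and the median from 4 to 5. This step was larger than those between the 3 classes just below, and smaller than that from below 25 to 25 to 50. The classes are of unequal width and no counting interval was computed for these means, so no break at 300 is shown.

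Dense regions were defined as 10 or more listed intervals joined at gaps of 10000 bp or less, which gave 1162 of them on autosomes. The median distance from an isolated strong interval to the nearest one, edge to edge, was 3.19 Mb (95% interval 2.86 to 3.48), and the quartiles were 1.00 and 7.57 Mb. For weaker isolated intervals the median was 3.81 Mb (3.70 to 3.92) and the quartiles were 1.43 and 8.39 Mb. Strong members were the nearer on 13 of 19 autosomes by the medians. A dense region lay within 1 Mb of 460 members (25.03%, 23.1 to 27.1%) and of 19.01% of weaker isolated intervals (18.4 to 19.7%). Within 100 kb the shares were 3.43% (2.64 to 4.36%) and 2.30% (2.05 to 2.56%). At distances over 10 Mb they were 18.3% (16.6 to 20.2%) and 20.1% (19.4 to 20.8%), with counting intervals that overlap. Whether the far shares differ was not tested.

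**Figure D5:**
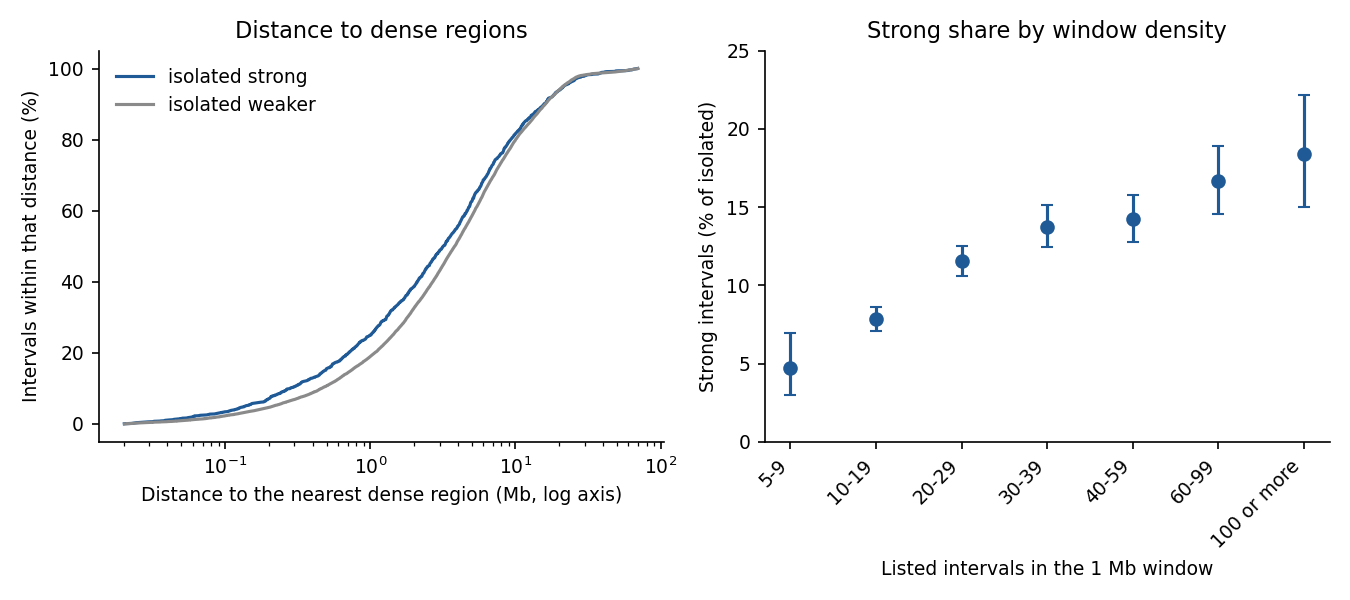
Left: cumulative percentage of isolated strong (blue) and isolated weaker (grey) intervals by distance to the nearest dense region (Mb, log axis); at 1 Mb the curves stand at 25.03% and 19.01%. Right: strong intervals as a percentage of isolated intervals, by the number of listed intervals in the 1 Mb window, with 95% Clopper-Pearson intervals, from 4.68% in windows with 5 to 9 to 18.4% in windows with 100 or more.

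At like gaps the members were again the nearer in each class, but the counting intervals of the medians separated only in the first. At nearest gaps of 20 to 25 kb the median distance to a dense region was 2.21 Mb (1.95 to 2.67) for members and 2.86 Mb (2.72 to 3.06) for weaker isolated intervals. At 25 to 30 kb it was 2.32 Mb (1.82 to 3.33) and 3.19 Mb (2.91 to 3.44), and at 60 to 100 kb 4.07 Mb (3.42 to 5.25) and 4.87 Mb (4.53 to 5.21). By score, the distance had no steady order above 25. It was 4.86 Mb (4.59 to 5.12) for isolated intervals scoring below 25, 3.41 Mb (3.27 to 3.63) at 100 to 200, 3.63 Mb (3.09 to 4.07) at 300 to 400, 2.74 Mb (2.20 to 3.46) at 500 to 700 and 3.23 Mb (2.56 to 4.22) at 700 or more.

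The distance differed between autosomes, with chromosome 15 far from the rest. Chromosome 11, with 142 dense regions, had the shortest median for members, 0.918 Mb. Chromosome 15 had 75 dense regions and a median of 28.0 Mb, the longest, followed by 6.14 Mb on chromosome 1. Weaker isolated intervals likewise had medians of 1.49 Mb on chromosome 11 and 24.2 Mb on chromosome 15. Across the 19 autosomes, the median distance of members and the number of dense regions had Pearson's r = -0.02 and Spearman's rho = -0.38. The 5 members farthest from a dense region were all on chromosome 15. They lay at chr15:3532901-3533500 (69.4 Mb away, score 438.0), at chr15:4976001-4976500 (67.9 Mb, 472.75), at chr15:6225801-6226250 (66.7 Mb, 326.25), at chr15:7347751-7348400 (65.6 Mb, 622.0) and at chr15:8048801-8049300 (64.9 Mb, 437.75). Their heights, 36.2 to 47.8, were below the median of the set. Without chromosome 15 the medians were 3.06 Mb for strong and 3.67 Mb for weaker isolated intervals. At the other extreme, a member at chr4:155484101-155484400 lay 0.0202 Mb from a dense region and had a score of 370.5.

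The share of strong intervals among isolated ones was also higher in fuller 1 Mb windows, from 5 listed intervals up. Windows with 1 to 4 listed intervals held 10 isolated ones, of which 1 was strong, too few to place. The share was 4.68% (2.99 to 6.95%) in windows with 5 to 9 listed intervals and 7.82% (7.06 to 8.63%) in those with 10 to 19. With 20 to 29 it was 11.6% (10.6 to 12.5%), with 30 to 39 13.7% (12.4 to 15.1%), with 60 to 99 16.7% (14.6 to 18.9%) and with 100 or more 18.4% (15 to 22.2%). The window count includes all listed intervals of any score, and the rule does not use it.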

How the data were processed

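The file the authors deposited lists 104683 TCF1 intervals and gives each a positive score. Its coordinates are mm9, per the submitters' processing notes. The meaning of the score, the aligner, the caller with its threshold and any use of the input were not given in the sources used here. Per the labels' protocols, fragments of 300 to 500 bp were kept after 17 cycles of PCR. Starts were converted to count from 1 and ends were read as inclusive. Gaps are the bases between facing edges, and an interval without a neighbour on 1 side was judged by the other (2 members). Dense regions, 1 Mb windows, matched score classes and gap classes were computed with scipy 1.17.1, pandas 2.3.3 and numpy 2.4.6 under Python 3.11.15, and drawn with matplotlib 3.10.9. The rule and the distance and width measures were tested on simulated lists. The members and all classes were chosen with earlier results of these data known. Intervals are named where they have the 10 highest scores, the 10 longest nearest gaps or the 5 longest distances to a dense region, are the strongest of an autosome, or sit at a limit of the rule. The 5 closest adjacent pairs of members are named as well. Alternatives varied the score, spacing, width and height limits, the dense-region definition, the reading of ends and the joining of close intervals. Counts of start sites, gene lists and motifs had been planned but were not run, since the reference tables are of another build. X and Y were left out by the rule.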

Additional observations from a re-analysis of the deposited data

How the results depend on the processing

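No paired analysis was possible because only 1 ChIP list was analysed. Of 54 alternative values for 9 results, 23 stayed within the counting interval (1.5 times for counts, 50 bp for the matched width) and 31 moved. A reversal of sign could be recorded only for the matched width difference, and 0 were recorded. The 50 bp allowed there is more than the median difference of 28.8 bp itself, so staying within it says little. Rounding scores to 0.25, means of widths, leaving out chromosome 15 and the gap weighting were chosen after the data were seen. Limits of 200 and 400 on the score gave 3624 and 1164 members, 22.8% and 7.32% of isolated intervals, median widths of 350 and 550 bp and median heights of 45.8 and 56.8, all set by the limit itself. At 200 the median number within 100 kb was 4. Isolation distances of 10000 and 50000 bp gave 3602 and 403 members, 12.7% and 9.13% of isolated intervals, and medians of 7 and 2 others within 100 kb. The density ratio at 50000 bp was 2.69. The distance to a dense region at these spacings was 2.17 and 4.16 Mb for strong and 2.99 and 4.69 Mb for weaker intervals. Without width and height limits the strong share was 12.7%, and after joining within 1000 bp 12.2%. Ends read as exclusive gave a median width of 449 bp. With dense regions of 5 or more intervals the distances were 0.595 Mb for strong and 0.919 Mb for weaker intervals, with joining at 5000 bp 5.93 and 6.83 Mb, and with the fullest 10% of 1 Mb windows 10.4 and 11.1 Mb. Counting the reported one, strong intervals had the shorter median in all 7 settings that gave both, which reuse the same list. For weaker intervals it was 3.67 Mb without chromosome 15 and 3.69 Mb when weighted to the gap classes of the strong ones. Read depth is unknown, which limits what a missing neighbour means, since an unlisted place is not shown to lack TCF1.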

Other observations

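Isolated strong intervals sometimes followed each other directly in the list. There were 125 pairs of members with no other interval between them, at a median gap of 44.6 kb. Where a member was followed by another isolated interval, that interval was a member in 13.5% of 926 cases (95% Clopper-Pearson interval 11.4 to 15.9%). Where a weaker isolated interval was followed by an isolated one, it was a member in 10.2% of 8029 cases (9.51 to 10.8%). Of all isolated autosomal intervals 11.6% were members. Not all of these directly follow another isolated interval, so that share is not a like baseline for the percentages above. How many pairs or runs that share would give was not computed. The closest pair lay at chr16:32078751-32079200 (score 382.0) and at chr16:32099401-32099950 (560.25), with 20.2 kb between them. The next was at chr13:3456601-3457000 (328.75) and at chr13:3477251-3477750 (629.25). A pair on chromosome 6 began at 113920401 and 113941601, one on chromosome 17 at 89191101 and 89212251, and one on chromosome 4 at 82484051 and 82505251, with gaps of 20.85 to 20.9 kb. Runs were at most 3 members long, and 7 runs had that length. Chromosome 9 held 3 of the 7, at chr9:15513951-15679100, at chr9:48793451-48864050 and at chr9:111550701-111622150, and the last of these reached a score of 894.0.

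On chromosome X, which the rule leaves out, 66 of 1180 isolated intervals met the same score, width and height limits. That is 5.59% (4.35 to 7.06%), below the lowest autosomal value of 9.13% on chromosome 8.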
